A study of Mus musculus with 4 samples.

Results

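The tumour necrosis factor (TNF) superfamily of ligands and receptors was examined together with the TRAF adaptors, the NF-kappaB transcription factor subunits, their IkappaB inhibitors and the Tnfaip genes, in 2 kinds of cells sorted from mouse gastric tumours. Members were chosen by gene symbol alone: the Tnfsf, Tnfrsf, Tnfaip, Traf and Nfkbi series, with Tnf, Lta, Ltb, Ltbr, Fas, Fasl, Cd40, Nfkb1, Nfkb2, Rel, Rela and Relb, and without Tnfrsf19. The array held 57 of them on 68 probes, among 32970 genes in all, of which 17016 carried a symbol. Cd40 and Nfkb1 had no probe that could be named here and were not analysed. Of the 57 members, 45 were measured well enough to be tested, meaning that in 1 group or both their signal stood well above background on each array. The remaining 12 did not reach that level.

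The tumours grew in K19-Wnt1/C2mE mice, taken at an age of 30 weeks, and the labels give a digestion of 3 h for every sample. These carry transgenes for Wnt1 and for cyclooxygenase-2 (Ptgs2) with microsomal prostaglandin E synthase-1 (Ptges), driven by the promoter of the epithelial keratin 19 gene. Both groups therefore share every transgene and differ in the surface protein by which they were sorted. The first group held lineage-negative CD44+ cells (2 arrays) and the second lineage-negative CD44- cells (2 arrays); CD44 is a hyaluronan receptor often used to enrich gastric tumour cells with stem-like properties. The lineage antibodies, the number of mice and any pooling are not given in the sources used here. Whether the replicates are separate mice is likewise not stated, and the p-values therefore reflect the spread between these samples alone, which may be technical.

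TNF family ligands are mostly membrane-bound or shed trimers that cluster their receptors. Receptors with a death domain can lead to caspase activation, and most others recruit TRAF proteins, which activate the IkappaB kinase complex. Phosphorylated IkappaB proteins are degraded and NF-kappaB dimers enter the nucleus, where they switch on cytokine genes and also their own inhibitors, Nfkbia and Tnfaip3 among them. In the stomach, TNF and NF-kappaB signalling are known from inflammation and from inflammation-associated tumours.

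Each array was a 1-colour Agilent array on which the RNA of 1 sample was hybridised. Levels below are log2 signal relative to the 75th percentile of the gene probes on the same array, so a level of 0 is that percentile, and a difference is the CD44+ mean minus the CD44- mean. That percentile lay at a processed signal of 244 to 527, and 53.1% to 69.6% of spots were well above background, least on CD44+ replicate 1; no spot was saturated. All 4 arrays were on 1 slide with 1 scan time. Across 21050 genes tested, 84 passed an adjusted p of 0.05 with limma, 5 higher and 79 lower in CD44+ cells. That count was 749 with arrays scaled to the median (121 higher and 628 lower), 34 and 2 without CD44+ replicate 1 or 2, and 1589 and 463 without CD44- replicate 1 or 2. Cd44 itself read 6.31 and 6.54 in the CD44+ samples and 4.26 and 5.11 in the CD44- samples, a difference of 1.74 ± 0.49 (SE, n = 2 arrays per group; limma adjusted p = 0.199).

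None of the 45 members passed an adjusted p of 0.05 (0.399% of all genes tested did), although 2 did under some other settings, Tnfrsf11b and Tnfsf10. The median difference of the members tested was 0.09, against 0.16 for all genes tested, with 25 members above 0 and 20 below (55.6% above 0, against 60.6% of all genes). Without adjustment, 8 members had a limma p under 0.05 (17.8% of the members, against 10.8% of all genes). The same 8 differed by at least 2-fold with no overlap of the groups, beside 13.5% of all genes. Higher in CD44+ cells were Tnfrsf11b, Tnfrsf12a and Tnfsf9 (3 of 45, against 3.8% of genes). Lower were Tnfsf10, Tnfsf18, Tnfrsf25, Fas and Nfkbia (5 of 45, against 9.66%). Tnfsf10 and Tnfsf18 were well above background only on the CD44- arrays and were tested through that group alone, which favours a lower reading. With probes well above background on all arrays, 40 members remained, 3 of them higher and 3 lower, beside 4.33% and 4.31% of genes. With no regard to size, the groups did not overlap for 21 members (39.6% of all genes), 13 of them higher in CD44+ cells (22.4%) and 8 lower (17.2%). With median scaling 4 members were at least 2-fold higher and 4 lower, with Tnfrsf11a added and Fas lost, beside 1092 and 1747 of all genes. Without CD44- replicate 1, 18 members were at least 2-fold apart without overlap, beside 26.9% of all genes. In sorted cell populations measured in bulk, fewer cells of a type and less RNA per cell cannot be told apart.

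**Figure D1:**
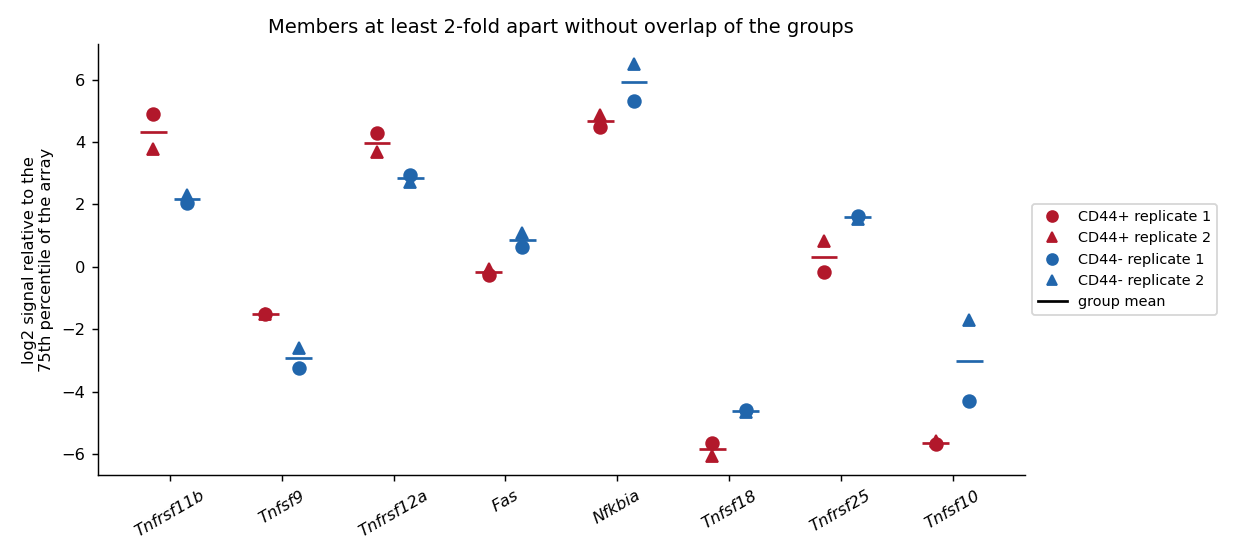
Log2 signal relative to the array's 75th percentile (vertical axis) of the 8 members that differed at least 2-fold without overlap of the groups (horizontal axis); red marks the CD44+ arrays, blue the CD44- arrays, circles replicate 1, triangles replicate 2, and bars the group means. Tnfrsf11b reads 4.89 and 3.79 on the CD44+ arrays against 2.05 and 2.32 on the CD44- arrays, while the CD44- arrays lie apart for Tnfsf10 (-4.31 and -1.71).

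Among the ligands, Tnfsf10 and Tnfsf18 were at least 2-fold lower in CD44+ cells without overlap of the groups, and Tnfsf9 was at least 2-fold higher. Tnfsf10 encodes TRAIL, which triggers apoptosis through death receptors. Its level was -5.67 and -5.60 on the CD44+ arrays, where it was not well above background, and -4.31 and -1.71 on the CD44- arrays. The groups did not overlap, but the second CD44- array stood far above the first. The measured difference was -2.63 ± 0.78 (limma adjusted p = 0.227), and set against the lowest signal well above background it was at least 2.41-fold lower. That limit rests on CD44- replicate 2, since replicate 1 at -4.31 lay no higher than the mean of those lowest signals, -4.28. Without CD44- replicate 2 the difference was -1.33. With the normexp background correction it was -0.60 (limma adjusted p = 0.993). The limma adjusted p was under 0.05 with median scaling (0.0366), the authors' value table (0.0367) and the replicate number as a block (1.26e-05). Across all genes those settings passed 749, 748 and 1829, against 84. Median scaling and the authors' table gave the same difference, -2.53. With the block every member had an SE of 0.52, so the gap between the CD44- arrays of Tnfsf10 did not enter that adjusted p. Without CD44- replicate 1, which leaves the higher array alone in its group, the difference was -3.93.

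Tnfsf9, the ligand of the T-cell co-stimulatory receptor CD137, read -1.51 and -1.51 in the CD44+ samples and -3.23 and -2.62 in the CD44- samples. All 4 values were above background and the groups did not overlap (2.67-fold higher, difference 1.42 ± 0.46, limma adjusted p = 0.275). Tnfsf18, the ligand of the receptor GITR, was near the detection limit everywhere: it was not well above background on the CD44+ arrays (-5.66 and -6.06) and was dim on the CD44- arrays (-4.58 and -4.67). No fold is given for it, because the lowest signal well above background lies as high. Its measured difference of -1.24 ± 0.45 (limma adjusted p = 0.331) became 0.10 with the normexp background correction.

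Tnf, the founding cytokine of the family, read -1.01 and -0.67 in the CD44+ samples and -1.77 and -1.05 in the CD44- samples. The groups did not overlap, by a narrow margin, and the difference was 0.57 ± 0.48 (limma adjusted p = 0.784). Lta and Ltb, the lymphotoxins, had opposite signs. Lta read -4.00 and -3.30 against -4.17 and -4.14 (0.51 ± 0.47; above background on 1 of the 2 CD44+ arrays). Ltb read -2.44 and -1.33 against -1.12 and -1.54, with overlapping groups (-0.55 ± 0.53).

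The other ligands had overlapping groups. Tnfsf13 (APRIL, a B-cell survival factor) was at 3.54 and 3.79 in CD44+ cells and 3.57 and 2.59 in CD44- cells. Tnfsf15 (TL1A, the ligand of Tnfrsf25) was at -2.67 and -3.83 against -3.65 and -4.09. Their differences were 0.59 ± 0.50 and 0.62 ± 0.53. Tnfsf13b (BAFF, another B-cell survival factor), Tnfsf14 (LIGHT, a ligand of Ltbr) and Fasl (the ligand of Fas) had differences between -0.14 and 0.09. Fasl was well above background only on the CD44- arrays, at -4.39 and -4.48. Those values lay no higher than the mean of the lowest signals well above background on the CD44+ arrays, -4.28. Its difference is therefore not a measured one. A second probe of Fasl, not well above background on any array, had the opposite sign.

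Receptors made up the largest role, with 15 members tested, and held the member with the smallest p. Tnfrsf11b encodes osteoprotegerin, a secreted decoy receptor that binds RANKL and TRAIL. It read 4.89 and 3.79 in the CD44+ samples and 2.05 and 2.32 in the CD44- samples, so both CD44+ values lay more than 1 log2 unit above both CD44- values. The level was 4.44-fold higher in CD44+ cells (2.15 ± 0.52, 95% confidence interval 0.96 to 3.34, limma adjusted p = 0.154). The limma adjusted p fell under 0.05 with median scaling (0.0239), the authors' value table (0.0242), normexp (0.00175) and the replicate block (0.000708). Across all genes those settings passed 749, 748, 540 and 1829, against 84. Median scaling and the authors' table gave nearly the same difference, 2.26 and 2.25. Every member had an SE of 0.50 with normexp and 0.52 with the block, so there the spread of Tnfrsf11b itself did not enter. The limma adjusted p was 0.359 with quantile normalization and 0.433 with no filter on dim probes. The difference lay between 1.60 and 2.70 in all alternatives. Tnfrsf11a, which encodes RANK, the signalling receptor for the ligand that osteoprotegerin captures, read -0.27 and -0.73 against -1.09 and -1.88. Its difference was 0.99 ± 0.49 without overlap (limma adjusted p = 0.575), and 0.35 on a second, dimmer probe. The ligand, Tnfsf11 (RANKL), had 2 probes, and neither was well above background on any array.

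Tnfrsf12a encodes Fn14, the receptor of the cytokine TWEAK, and is typical of injured or growing epithelium. It read 4.28 and 3.68 in the CD44+ samples and 2.94 and 2.73 in the CD44- samples (2.21-fold higher, 1.14 ± 0.46, limma adjusted p = 0.41). The groups did not overlap. The difference of Tnfrsf12a was 0.98 with quantile normalization and 0.85 without CD44+ replicate 1, under 2-fold in both. Its ligand, Tnfsf12 (TWEAK), was not well above background on any array.

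Fas, the death receptor that Fasl engages, and Tnfrsf25, the death receptor DR3, were lower in CD44+ cells. Fas read -0.26 and -0.07 in the CD44+ samples and 0.65 and 1.10 in the CD44- samples (2.06-fold lower, -1.04 ± 0.45, limma adjusted p = 0.464). Tnfrsf25 read -0.16 and 0.83 against 1.63 and 1.54 (2.39-fold lower, -1.26 ± 0.50, limma adjusted p = 0.399). Neither pair of groups overlapped. A second, dimmer probe of Tnfrsf25 had the opposite sign, at 0.56, so the direction for this gene rests on which probe is read.

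The receptors of TRAIL lay on both sides. Tnfrsf10b, the mouse death receptor for TRAIL, read -1.57 and -1.52 in the CD44+ samples and -1.74 and 0.18 in the CD44- samples; only the second CD44- array stood out, and the difference was -0.77 ± 0.65, or 0.20 without that array. Tnfrsf22 and Tnfrsf23, decoy receptors of TRAIL that lack a working death domain, were higher in CD44+ cells without overlap. Tnfrsf22 read -0.68 and -1.05 against -1.42 and -1.89 (0.79 ± 0.46), and Tnfrsf23 read -3.22 and -3.54 against -4.09 and -4.16 (0.74 ± 0.44). Their limma adjusted p-values were 0.679 and 0.689.

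For the classical TNF and lymphotoxin receptors the groups overlapped. Tnfrsf1a, the widely expressed TNF receptor with a death domain, read 3.57 and 4.04 in the CD44+ samples and 3.86 and 3.76 in the CD44- samples (-0.01 ± 0.45). Ltbr, the lymphotoxin receptor that drives the alternative NF-kappaB pathway, read 3.91 and 4.37 against 4.28 and 3.77 (0.11 ± 0.47). Tnfrsf1b, the TNF receptor without a death domain, read 1.11 and 0.65 against 1.11 and 0.02 (0.32 ± 0.52). The 95% confidence interval of the limma fit ran from -1.05 to 1.03 for Tnfrsf1a and from -0.96 to 1.19 for Ltbr, so differences of about 2-fold either way lie within it.

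The co-stimulatory receptors best known from T cells were mixed. Tnfrsf18 (GITR) read 1.37 and 1.93 in the CD44+ samples and 1.32 and 0.48 in the CD44- samples, a difference of 0.75 ± 0.50 with the groups barely apart. Its ligand Tnfsf18 had the opposite sign. Tnfrsf4 (OX40) differed by -0.39 and Tnfrsf9 (CD137, the receptor of Tnfsf9) by -0.30. Tnfrsf21 (DR6) completed the tested receptors at -0.38.

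**Figure D2:**
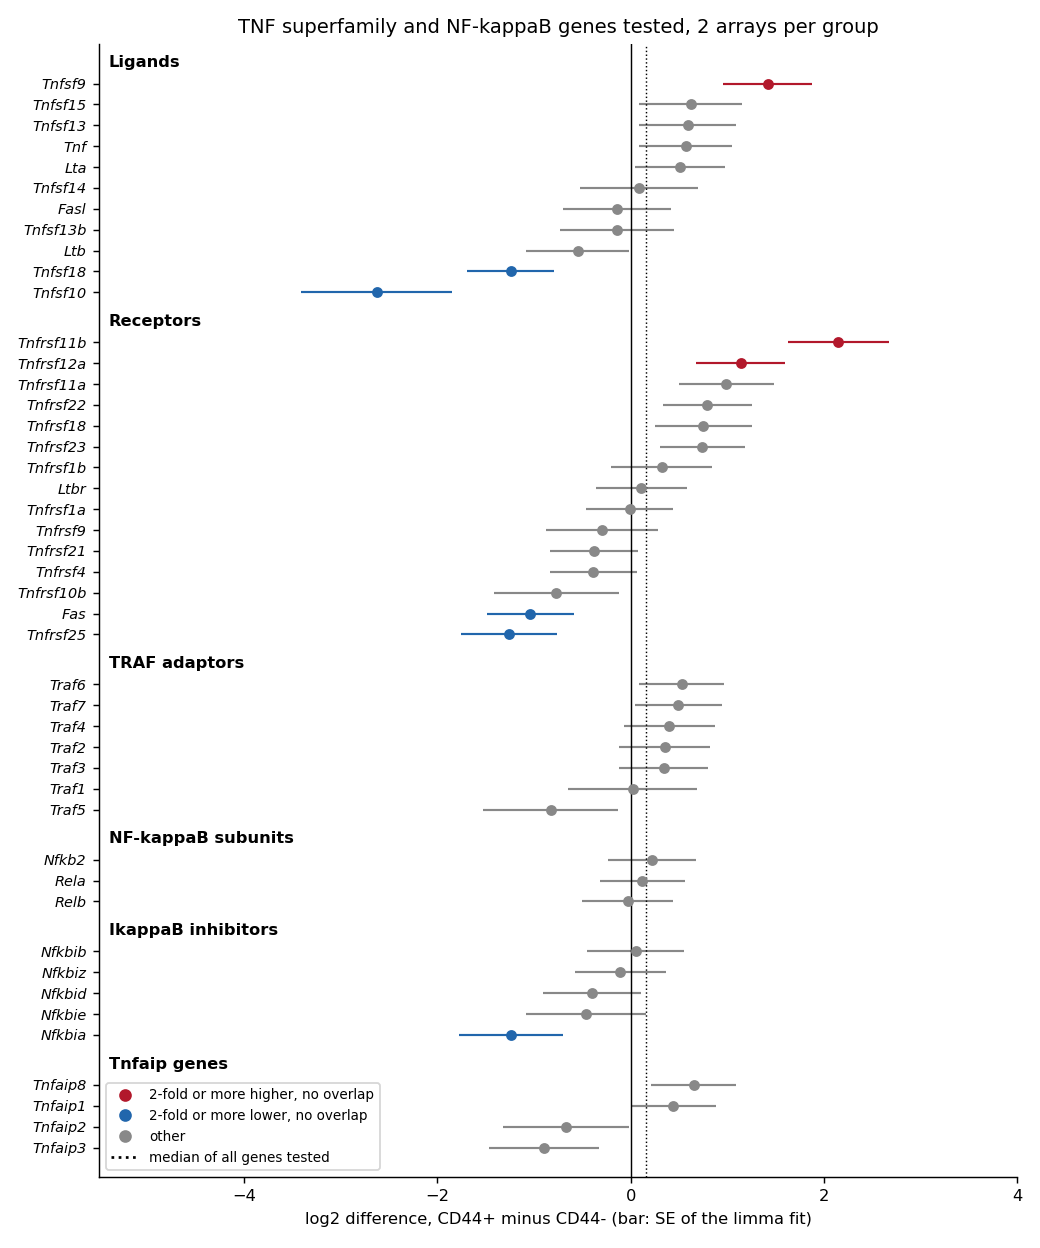
Difference in log2 signal, CD44+ minus CD44- (horizontal axis), with the SE of the limma fit as bars, for the 45 members tested, grouped by role; red and blue mark members at least 2-fold higher or lower without overlap, and the dotted line the median of all genes tested, 0.16. Differences run from -2.63 (Tnfsf10) to 2.15 (Tnfrsf11b), and no NF-kappaB subunit or TRAF adaptor is coloured.

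TRAF adaptors link receptors to kinases. All 7 were tested, 6 had a difference above 0 (as did 60.6% of all genes), and the median was 0.35, beside 0.16 for all genes. Traf6, the adaptor shared with the interleukin-1 and Toll-like receptors, read -2.22 and -2.43 in the CD44+ samples and -2.82 and -2.89 in the CD44- samples (0.53 ± 0.44, no overlap). Traf7 read 2.41 and 2.02 against 1.65 and 1.80 (0.49 ± 0.45, no overlap). Traf2, the main adaptor of the TNF receptors, read 2.47 and 1.99 against 2.11 and 1.64 (0.35 ± 0.47), with overlap. Traf5 read -1.35 and -0.06 against -0.77 and 1.02 (-0.83 ± 0.70), and the replicates of each group lay further apart than the group means. Traf3 and Traf4 differed by 0.34 and 0.40. Traf1, itself a target of NF-kappaB, had a difference of 0.02 that hid a wide gap between the CD44- arrays (-2.28 and -0.24).

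The NF-kappaB subunits measured had differences close to 0. Rela, which encodes p65, the main activating subunit of the classical pathway, read 2.18 and 2.35 in the CD44+ samples and 2.01 and 2.27 in the CD44- samples (0.12 ± 0.44, limma adjusted p = 0.94); a second, dimmer probe was at -0.06. Relb, the activating subunit of the alternative pathway, read 1.69 and 1.30 against 1.24 and 1.80 (-0.03 ± 0.47). Nfkb2, the precursor of the partner of Relb, read 0.39 and -0.07 against 0.09 and -0.22 (0.22 ± 0.46). Groups overlapped for all 3, and their differences were smaller than their SE. Rel was not well above background on any array. NF-kappaB is controlled mainly by where the proteins are and not by the amount of their RNA, so these levels do not measure its activity.

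Of the 5 IkappaB genes, 4 had a difference below 0 (5 with quantile normalization or normexp), as did 8302 of the 21050 genes tested. The highest level was on the second CD44- array for 4 of them, as for 25.3% of all genes tested. Without that array, only Nfkbia of the 5 stayed below 0. Nfkbia encodes IkappaBalpha, the inhibitor that is degraded and made anew in each round of NF-kappaB activation. It read 4.49 and 4.88 in the CD44+ samples and 5.32 and 6.52 in the CD44- samples (2.37-fold lower in CD44+ cells, -1.24 ± 0.54, limma adjusted p = 0.462). The groups did not overlap, and without CD44- replicate 2 the difference was -0.64. Nfkbie (IkappaBepsilon) read -2.33 and -1.65 against -2.34 and -0.72, and Nfkbid, a nuclear IkappaB protein, read -3.10 and -3.04 against -3.21 and -2.12. For both, CD44- replicate 1 was level with or below the CD44+ arrays and only replicate 2 was above them. Nfkbiz, the nuclear IkappaBzeta, read 1.72 and 2.25 against 1.87 and 2.32 (-0.11 ± 0.47), with overlap, and Nfkbib (IkappaBbeta) differed by 0.05.

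The Tnfaip genes, named for their induction by TNF, were split. Tnfaip3 encodes A20, a ubiquitin-editing enzyme that shuts NF-kappaB signalling down. It read 2.52 and 2.50 in the CD44+ samples and 2.67 and 4.15 in the CD44- samples (-0.90 ± 0.57, limma adjusted p = 0.715). Without CD44- replicate 2 its difference was -0.16, so that array carried most of it. Tnfaip2 read 1.14 and 0.52 against 0.59 and 2.41 (-0.67 ± 0.65). Tnfaip8 read 1.99 and 1.73 against 1.29 and 1.13 (0.65 ± 0.44) and Tnfaip1, an adaptor of a ubiquitin ligase, -0.51 and -0.60 against -1.08 and -0.91 (0.44 ± 0.44). These last 2 were higher on both CD44+ arrays than on either CD44- array.

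The second CD44- array was therefore compared with the first, member by member. At least 2-fold higher on it were 11 of the 45 members (24.4%, against 10.9% of all genes tested), and 2 were at least 2-fold lower, Tnfrsf1b and Tnfsf14. The 11 were Nfkbia, Nfkbid, Nfkbie, Tnfaip2, Tnfaip3, Tnfrsf9, Tnfrsf10b, Tnfsf10, Tnfsf13b, Traf1 and Traf5. Between the CD44+ arrays, 6 members were at least 2-fold apart (13.3%, against 18.8% of all genes): Ltb and Traf5 were higher on replicate 2, and Fasl, Tnfrsf11b, Tnfsf14 and Tnfsf15 lower. Summed over the 5 IkappaB genes, the linear signal in units of the array's 75th percentile was 29.1 and 40.4 on the CD44+ arrays, 48.0 on the first CD44- array and 102 on the second. That sum is mostly Nfkbia.

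Several of these 11 are textbook targets of NF-kappaB, so the 250 bases upstream of each member's transcription start were searched for the kappaB consensus motif of 10 letters, on both strands and with overlaps allowed. The motif was chosen after these values had been seen. Promoters were taken from RefSeq (GRCm38.p6). Of 47 members with an entry, 12 held at least 1 match (25.5%), against 8.23% of all symbols and 7.25% of all 32851 entries. Shown are the IkappaB genes and Tnfaip3, the feedback inhibitors among the 11, with matches in capitals. Nfkbia lies at chr12:55492648-55492897 on the minus strand, and its match begins 29 bases before the start. Nfkbid lies at chr7:30422156-30422405 on the plus strand, with matches 226 and 181 bases before. Nfkbie lies at chr17:45555450-45555699 on the plus strand, with a match 106 bases before. Tnfaip3 lies at chr10:19015411-19015660 on the minus strand, with matches 125 and 12 bases before.
Nfkbia: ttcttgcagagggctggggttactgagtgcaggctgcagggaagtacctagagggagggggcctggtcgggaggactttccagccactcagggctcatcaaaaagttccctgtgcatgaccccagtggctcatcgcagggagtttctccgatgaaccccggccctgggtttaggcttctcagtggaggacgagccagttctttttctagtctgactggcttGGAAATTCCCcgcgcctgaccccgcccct
Nfkbid: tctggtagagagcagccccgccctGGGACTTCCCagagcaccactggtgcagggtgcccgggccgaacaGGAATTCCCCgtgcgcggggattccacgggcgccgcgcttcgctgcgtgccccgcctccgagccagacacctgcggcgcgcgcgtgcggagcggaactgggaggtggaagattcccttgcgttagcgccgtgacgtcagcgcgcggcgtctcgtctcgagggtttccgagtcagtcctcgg
Nfkbie: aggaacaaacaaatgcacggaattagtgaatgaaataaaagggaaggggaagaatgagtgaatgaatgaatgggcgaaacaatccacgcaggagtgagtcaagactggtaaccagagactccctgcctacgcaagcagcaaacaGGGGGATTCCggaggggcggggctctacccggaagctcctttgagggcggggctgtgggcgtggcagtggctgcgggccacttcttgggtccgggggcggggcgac
Tnfaip3: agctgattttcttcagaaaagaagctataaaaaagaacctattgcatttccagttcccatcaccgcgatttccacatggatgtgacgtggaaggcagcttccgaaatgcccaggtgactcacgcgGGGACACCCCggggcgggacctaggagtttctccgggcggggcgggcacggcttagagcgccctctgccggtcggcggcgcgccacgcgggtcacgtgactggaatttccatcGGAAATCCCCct

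Among members tested, 10 held a match and 28 with an entry held none. Of the 10, 6 were at least 2-fold higher on the second CD44- array than on the first (median gap 1.14). Of the 28, 4 were (median gap -0.08). Over all genes tested the same shares were 15.4% of 1109 genes with a match and 9.98% of 9614 without, with median gaps of -0.14 and -0.22. The group difference had a median of -0.50 for the 10 members with a match, 8 of them below 0, and 0.22 for the 28 without. Leaving out CD44- replicate 2, these medians were 0.11 and 0.12, and 4 of the 10 were below 0. The 6 were Nfkbia, Nfkbid, Nfkbie, Tnfaip2, Tnfaip3 and Tnfrsf9, and the 4 with a match that did not show the gap were Ltb, Nfkb2, Tnfrsf25 and Traf3. These counts are a description of the letters upstream and of 2 arrays; a match is not a bound site.

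**Figure D3:**
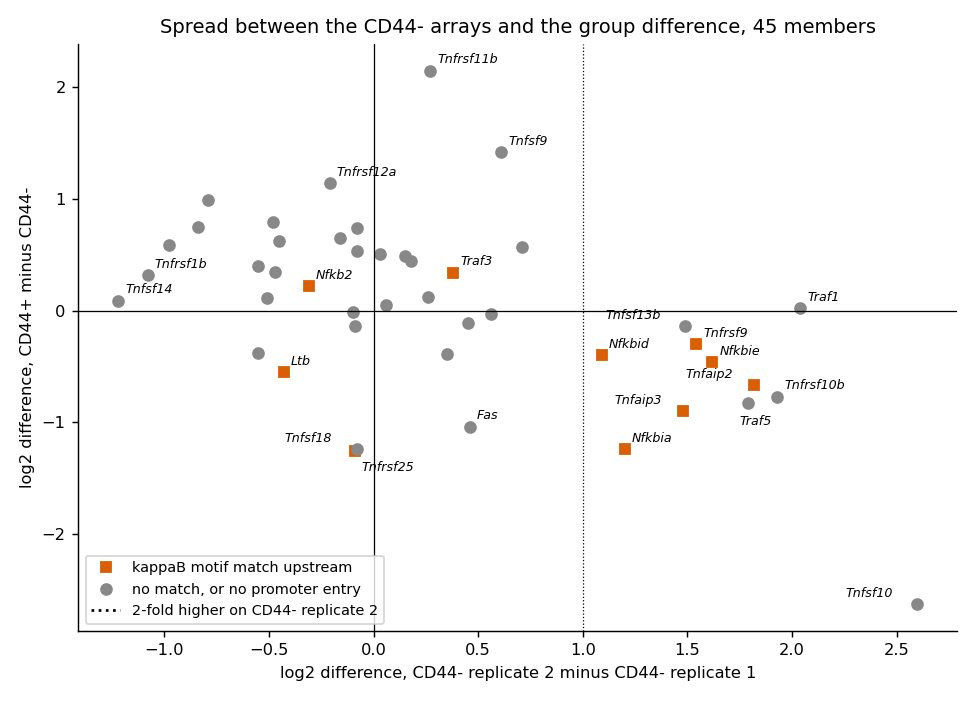
Log2 signal of CD44- replicate 2 minus replicate 1 (horizontal axis) against the difference CD44+ minus CD44- (vertical axis) for the 45 members tested; squares mark members with a kappaB match in the 250 bases upstream, circles the others, and the dotted line a gap of 2-fold. The CD44- replicate 2 values enter both axes, so a gap to the right pulls a point down; Tnfrsf11b and Tnfsf9 lie high with gaps under 2-fold, and 11 members lie to the right of the line.

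Markers of other cell types moved with the same array. Of 10 endothelial markers, 8 were tested, and their median level was -2.67 and -1.96 on the CD44+ arrays, -0.13 on CD44- replicate 1 and 3.48 on replicate 2. Their summed signal, in units of the array's 75th percentile, was 1.55 and 2.19 against 6.77 and 119, and Pecam1 and Tie1 were well above background on 1 array each and not tested. The 10 fibroblast markers had a median of -0.41 and 1.66 against 2.53 and 4.40, and a summed signal of 12.4 and 48.5 against 80.3 and 479. Gastric and simple epithelial markers had medians of 8.70 and 8.03 against 8.75 and 6.66, high on every array and lowest on CD44- replicate 2. Within that list 10 differences lay above 0 and 2 below. Epcam was 3.15-fold higher (1.66 ± 0.46) and Muc5ac 25.2-fold lower in CD44+ cells (-4.65 ± 0.93), both without overlap. Squamous epithelial markers had medians of -0.92 and -2.11 against 2.35 and 3.00, and enteroendocrine markers of -2.42 and -3.40 against 0.67 and 1.18. These medians lay apart between the groups on all arrays. Of the squamous markers tested, 8 lay below 0 and 2 above, Ivl (1.60, no overlap) and Lor (0.19). The part of any of these cells in the IkappaB, Tnfaip3 and TRAIL values was not tested.

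Leukocyte markers were read because several ligands and receptors are best known from lymphocytes. The median of 6 pan-leukocyte markers was -2.07 and -1.95 in the CD44+ samples and -2.16 and -2.42 in the CD44- samples. Among them Cd53 was at least 9.06-fold higher in CD44+ cells (measured difference 3.81 ± 0.47, limma adjusted p = 0.024) and not well above background in CD44- cells. Laptm5 was 2.78-fold lower without overlap (-1.48 ± 0.57) and above background on 1 of the 2 CD44+ arrays, and Ptprc differed by -0.66. The differences of the other 4 lay above 0, Cd53 among them. Of 10 T- and B-cell markers, 4 were not well above background on any array (Cd3d, Cd3g, Cd28 and Ms4a1), and the other 6 had a median difference of 0.43. Of 11 macrophage and monocyte markers, 7 were tested, with a median difference of 0.33 and a summed signal of 62.4 and 60.5 in the CD44+ samples and 37.8 and 47.9 in the CD44- samples. That sum is mostly Cd14 in the CD44+ samples and mostly Cd14 with Lyz2 in the CD44- samples. Of the 7, 5 differences lay above 0 and 2 below. Among them Cd14 read 5.62 and 5.87 against 4.25 and 4.66 (1.29 ± 0.45). Lyz2 read 3.52 and 0.49 against 4.16 and 4.46 (-2.30 ± 0.88). C1qc was at least 1.68-fold lower (measured difference -1.83 ± 0.46) and not well above background on the CD44+ arrays. Adgre1 and Cd163 were well above background on no array. Of 6 neutrophil markers, only S100a9 (-3.49) and Mpo (0.25) were tested. The part of these cells in the members' values was not tested. Of the 9 mast cell markers, 7 were tested. Their summed signal was 10.5 and 14.9 in the CD44+ samples and 3.44 and 3.20 in the CD44- samples. At least 2-fold higher, with no overlap, were 4 of the 7 (3.8% of all genes), the proteases Mcpt1, Mcpt2, Mcpt4 and Cma1. Kit, Fcer1a and Tpsb2 differed by 0.06, 0.13 and 0.05. The part of mast cells in the values of Tnfsf9 and Tnfrsf11b was not tested.

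**Figure D4:**
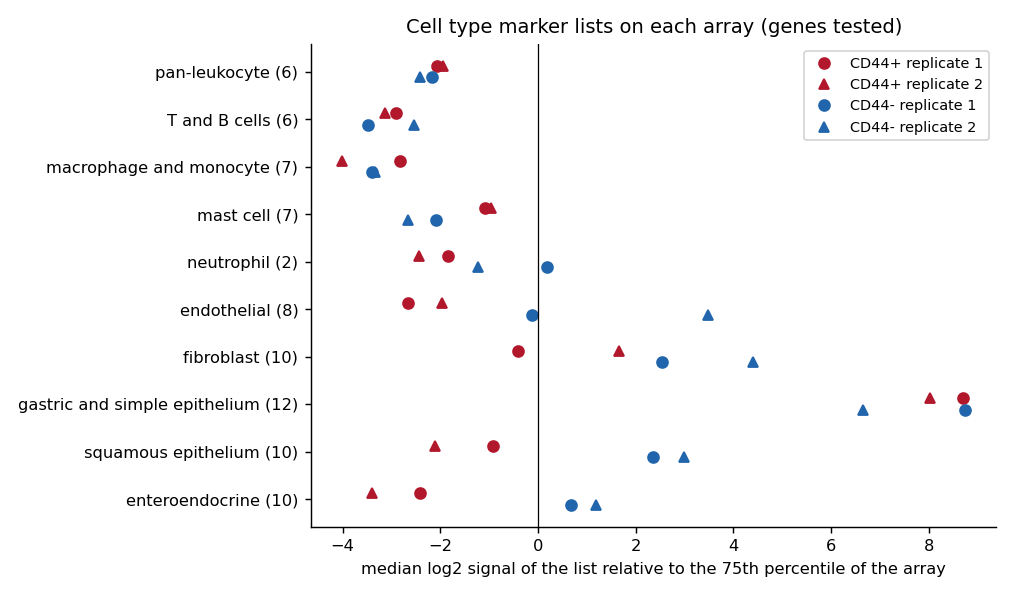
Median log2 signal relative to the array's 75th percentile (horizontal axis) of the tested genes of each cell type marker list (vertical axis, number of genes in brackets) on each array. Endothelial and fibroblast medians are highest on CD44- replicate 2 (3.48 and 4.40), and pan-leukocyte medians lie between -2.42 and -1.95 on all 4 arrays.

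The signalling proteins between receptor and NF-kappaB had a median near that of all genes. Of 35 genes, 33 were tested, and 0 passed an adjusted p of 0.05 with limma (1 was under 0.05 unadjusted, beside 10.8% of all genes). The median difference was 0.13, beside 0.16. Without overlap and at least 2-fold, 2 were higher in CD44+ cells and 0 lower, beside 3.8% and 9.66% of all genes. Tnip3, a partner of A20 that restrains NF-kappaB, read -2.12 and -2.41 in the CD44+ samples and -3.81 and -3.87 in the CD44- samples (2.98-fold higher, 1.58 ± 0.44, limma adjusted p = 0.199). Ripk3, the kinase of necroptosis, read 3.29 and 2.85 against 2.37 and 1.62 (2.11-fold higher, 1.07 ± 0.49, limma adjusted p = 0.5). Fadd, the adaptor that joins death receptors to caspase-8, read 0.74 and 1.05 against 0.30 and -0.25 (0.87 ± 0.46). For each of these genes the groups did not overlap. The IkappaB kinases Chuk and Ikbkb differed by 0.25 and 0.04.

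The NF-kappaB target genes spread widely. Of 28, 23 were tested, and 0 passed an adjusted p of 0.05 with limma. Unadjusted, 11 were under 0.05, 4 higher and 7 lower, beside 10.8% of all genes. The median difference was -0.67, beside 0.16 for all genes. At least 2-fold apart without overlap were 12 of the 23 (13.5% of all genes), 4 higher and 8 lower in CD44+ cells (3.8% and 9.66%). Of the 8, Cxcl2, Icam1, Il1b and Ptgs2 were well above background on both CD44- arrays but not on both CD44+ arrays. They were tested through the CD44- group alone, which favours a lower reading. At least 2-fold higher on the second CD44- array than on the first were 13 of the 23 (10.9% of all genes). Without CD44- replicate 2 the median was -0.09, beside 0.05 for all genes. With 1 array left in that group, 5 were still at least 2-fold higher and 7 lower without overlap. Over the 21050 genes tested, 863 and 1899 were. Ptgs2, which is also a gene of the transgenes, read -5.46 and -3.10 in the CD44+ samples and -1.19 and 0.81 in the CD44- samples (-4.09 ± 0.89, limma adjusted p = 0.123), and was above background on 1 of the 2 CD44+ arrays. Whether its probe also reads the transgene was not tested. Cxcl1, a neutrophil chemokine, read -0.55 and -0.62 against 0.68 and 2.11 (-1.98 ± 0.56), whereas its relative Cxcl5 read 3.70 and 3.50 against 1.30 and 2.05 (1.93 ± 0.48). Their limma adjusted p-values were 0.203 and 0.16. Chemokines stood on both sides: like Cxcl1, Ccl2 (-2.23) and Cxcl10 (-2.49) were lower without overlap, and like Cxcl5, Ccl20 (1.29) was higher.

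The family members that the symbol rule leaves out were mostly dim. Of 9 (the ectodysplasin, CD27, CD40 ligand and related genes), 4 were tested. Of these, 3 were at least 2-fold lower in CD44+ cells without overlap, as were 9.66% of all genes. Edar and Cd70 were tested through the CD44- group alone, which favours a lower reading. Ngfr, the low-affinity neurotrophin receptor, read -1.24 and -2.45 in the CD44+ samples and -0.32 and 0.78 in the CD44- samples (-2.08 ± 0.60, limma adjusted p = 0.21). Edar, the ectodysplasin receptor, read -4.54 and -4.98 against -3.18 and -2.99 (-1.68 ± 0.45, limma adjusted p = 0.186) and was above background on 1 of the 2 CD44+ arrays. Cd70, the ligand of CD27, read -5.65 and -5.21 against -4.57 and -4.21 (-1.04 ± 0.46, limma adjusted p = 0.475). It was not well above background on the CD44+ arrays, and no fold is given for it.

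Finally, the 12 members not tested were the ligands Tnfsf4 (OX40 ligand), Tnfsf8 (CD30 ligand), Tnfsf11 and Tnfsf12, the receptors Tnfrsf8 (CD30), Tnfrsf13b, Tnfrsf13c, Tnfrsf14, Tnfrsf17 and Tnfrsf26, the subunit Rel, and Tnfaip6. Tnfrsf13b, Tnfrsf13c and Tnfrsf17 are receptors of the B-cell survival factors. Of the 12, 6 were well above background on no array and none on more than 2. Tnfaip6, a secreted hyaluronan-binding protein, was above it on the second array of each group. A level below detection on these arrays does not show that the gene is silent.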

How the data were processed

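RNA of 2 CD44+ and 2 CD44- samples was measured on 1-colour arrays. From 25 ng of total RNA, amplified RNA was made and 0.2 ug of it labelled, per the labels' protocols. Such amplification can distort ratios and lose rare transcripts. The processed signal that the authors deposited is a background-subtracted intensity, per the file headers (Agilent Feature Extraction 10.1.1.1; the submitters' processing notes name 9.5). The authors' value table holds a linear ratio: deposited log2 differences between arrays matched the scanner values for 10728 bright probes, and how its factors were chosen is unknown.

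Control and outlier spots were left out, spots of a probe averaged, and log2 signal was taken relative to the array's 75th percentile over 41174 gene probes. Accessions were matched to RefSeq symbols (24375 probes). A gene was its brightest probe among those well above background on each array of 1 or both groups. Of 10 members with more than 1 probe, the text says where probes disagreed. Groups were compared with limma 3.58.1 in R 4.3.3 without covariates (2 residual and 6.02 prior degrees of freedom), with Benjamini-Hochberg adjustment over 21050 genes and a threshold of 0.05. The fit was also run on simulated data with the same spread for every gene and with changes larger than any member's. It therefore does not show how the fit handles unequal replicates or small differences. A lower limit of a fold sets the brighter group against the lowest signal well above background on each dim array.

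Members, gene lists and tests were chosen with earlier results of these data known. Values on every array are given for the 25 members with the smallest p and for a set of central genes; in each of the 3 pathway lists the 3 genes with the smallest p are given. Others were named after their values were seen. Alternatives were median and quantile scaling, normexp background correction, other probe filters, the mean over probes, the authors' table, a replicate block and leaving out each array.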

Additional observations from a re-analysis of the deposited data

How the results depend on the processing

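With 2 arrays per group, replication and signal over background set the limits: 5 of the 45 members tested were not above background on every array. Members past an adjusted p of 0.05 with limma numbered 0, and 2 with median scaling or the authors' table, 1 with normexp, and 0 to 2 when 1 array was left out. The members that passed were Tnfrsf11b and Tnfsf10. Members at least 2-fold apart without overlap numbered 8 (13.5% of all genes did so), but 4 with normexp (5.73%) and 6 to 18 with 1 array left out (13.1% to 26.9%), 18 being without CD44- replicate 1. The median over the members tested moved from 0.09 to 0.20 with median scaling and 0.19 with the authors' table, beside 0.26 for all genes in both, and lay between 0.04 and 0.20 with 1 array left out. Over all genes, 84 calls became 749 with median scaling, 748 with the authors' table, 540 with normexp, 24 with no filter, 6 with quantile normalization, and 2 to 1589 with 1 array left out, lowest without CD44+ replicate 2 and highest without CD44- replicate 1. The cause was not tested.

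With the replicate number as a block, 2 members and 1829 genes passed. The SE was then 0.52 for every member, and with normexp it was 0.50 for every member. In these settings the p-values rest on a spread common to the members and not on each gene's own. The labels do not say what a number shares, and the correlation of deviations of same-numbered arrays was 0.347. A block for slide or scan was not run, as all arrays share both.

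Direction held for 25 of the 45 members in all alternatives run. It turned with normexp for Tnfsf18 (0.10), Tnfrsf9 (0.12), Fasl (0.22) and Nfkbib (-0.01), with quantile normalization for Fasl (0.05), Rela (-0.01), Ltbr (-0.05) and Nfkbib (-0.09), with median scaling for Relb (0.08) and Tnfrsf1a (0.10), and with the authors' table for Relb (0.07) and Tnfrsf1a (0.10). With 1 array left out, the sign turned for Traf5 (-1.73 to 0.06), Tnfrsf10b (-1.73 to 0.20), Ltb (-1.11 to 0.00), Tnfaip2 (-1.59 to 0.24), Nfkbid (-0.95 to 0.14), Nfkbie (-1.26 to 0.35), Tnfrsf1b (-0.22 to 0.86), Tnfrsf9 (-1.07 to 0.47), Nfkb2 (-0.01 to 0.45), Rela (-0.01 to 0.25), Fasl (-0.83 to 0.56), Ltbr (-0.14 to 0.37), Nfkbiz (-0.38 to 0.15), Tnfsf13b (-0.88 to 0.61), Tnfsf14 (-0.52 to 0.70), Nfkbib (-0.43 to 0.53), Relb (-0.31 to 0.25), Traf1 (-1.0 to 1.04) and Tnfrsf1a (-0.24 to 0.22).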
